A study of Rattus norvegicus with 6 samples.

Results

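The genes described here carry glucose and related sugars across kidney cell membranes, together with the arrestin gene Txnip and its relative Arrdc4. They were chosen by name, with earlier results of these data known. The 10 rat genes comprise 3 sodium-coupled transporters (Slc5a1, Slc5a2 and Slc5a10), 5 facilitative transporters (Slc2a1, Slc2a2, Slc2a4, Slc2a5 and Slc2a9) and the 2 arrestins. Each was looked up among the array probes through the RefSeq accession that the files give, and 9 of the 10 had a probe, 1 probe each. No probe matched Arrdc4, which was not analysed here. All 9 passed the filter on dim probes, among 17892 features tested, of which 10633 were named genes.

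Total RNA from rat kidney was labelled with Cy3 and hybridised to Agilent one-colour arrays, with the question of how Bailing Capsule, a fermented Cordyceps preparation, affects renal gene expression. The groups were 3 arrays of kidney from Bailing Capsule-treated rats and 3 of kidney from diabetic rats, all aged 21 weeks. The sources used here give no strain, sex, dose or way in which diabetes was brought about, and do not say whether the treated rats were diabetic. Nor do they say how the 3 samples of a group were collected, or whether each came from a separate rat. The p-values below therefore cover only sample-to-sample spread, which may be technical. Values given for the rats or kidneys of a group are those of its arrays.

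In the proximal tubule, filtered glucose enters the cell at the apical side through sodium-coupled transporters, mostly SGLT2 in the early segments and SGLT1 further on. It leaves at the basolateral side through the facilitative carriers GLUT2 and GLUT1. TXNIP is an arrestin that binds thioredoxin and restrains glucose uptake, and its gene is induced by glucose through the factors ChREBP and MondoA. Renal glucose transporters are of interest in diabetes because the tubule then takes up more glucose from the filtrate.

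The promoters of Arrdc4 and Slc5a1 are shown because they hold CACGTG, the box that ChREBP and MondoA bind in pairs. Each line gives the 250 bases before the annotated start, 5′ to 3′ on the gene's strand, from RefSeq (build GRCr8). Arrdc4 lies at chr1:131793426-131793675 and Slc5a1 at chr14:81843085-81843334, both on the minus strand. Capitals mark CACGTG, which reads the same on both strands.
Arrdc4: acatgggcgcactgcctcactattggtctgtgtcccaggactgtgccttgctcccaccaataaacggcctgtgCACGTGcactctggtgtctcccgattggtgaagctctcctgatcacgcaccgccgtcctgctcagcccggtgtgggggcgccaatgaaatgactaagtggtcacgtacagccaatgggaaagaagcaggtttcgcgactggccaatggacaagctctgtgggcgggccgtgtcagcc
Slc5a1: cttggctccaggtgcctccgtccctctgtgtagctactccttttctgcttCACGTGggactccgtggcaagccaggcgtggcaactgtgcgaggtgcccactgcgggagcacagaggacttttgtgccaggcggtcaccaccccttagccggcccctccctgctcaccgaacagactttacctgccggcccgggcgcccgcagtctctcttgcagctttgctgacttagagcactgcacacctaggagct

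CACGTG was found in these 2 of the 8 member promoters that RefSeq gave, and in 5.59% of 33469 rat promoters of this length. The carbohydrate response element, searched as CACGNG, 5 bases and CNNGTG on both strands, was found in 0 of the 8 and in 0.206% of all. Txnip and Slc2a4 were not among the promoters used here.

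Values are log2 signals minus the 75th percentile of the array, so a value of 0 is a signal at that percentile. Levels are compared between samples for the same probe only, since probes differ in brightness. The arrays were read in 2 scans. Scan A held the 3 Bailing Capsule arrays and diabetic replicate 1, and scan B held diabetic replicates 2 and 3. Scan and group are therefore partly confounded. With scan as a block, the difference of a gene with all values rests on the treated arrays and diabetic replicate 1 alone. On each array 65.0% to 73.7% of probes were well above background and no spot was saturated. Pairs of arrays correlated at 0.966 to 0.992 across features.

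Slc5a10 was the member whose difference passed the test, and it fell in Bailing Capsule kidneys. It encodes SGLT5, a sodium-coupled carrier of mannose and fructose in the kidney. Slc2a2 and Txnip were lower and Slc2a4 was higher, each with no overlap between groups, but these differences did not pass over all features. Slc5a2, the main apical glucose transporter, was not called. Over all features limma called 0.296% at an adjusted p under 0.05 (53 of 17892, 26 higher and 27 lower), and of the 9 members 1 was called. Groups did not overlap for 4 of the 9, against 13.5% of all features: 3 lower, against 7.05%, and 1 higher, against 6.5%. The median log2 difference was -0.50 over the 9 members and -0.04 over all features. Because the members were chosen with earlier results known, these shares and medians are a description and not a test. With marked spots kept and scan as a block the medians were 0.11 and 0.04. That setting leaves diabetic replicate 1 alone in its group, so scan and the loss of the other diabetic arrays cannot be told apart. The members' median was -0.17 after normexp with quantile normalization, and -0.16 over the 8 members left by a filter on all 6 arrays.

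**Figure D1:**
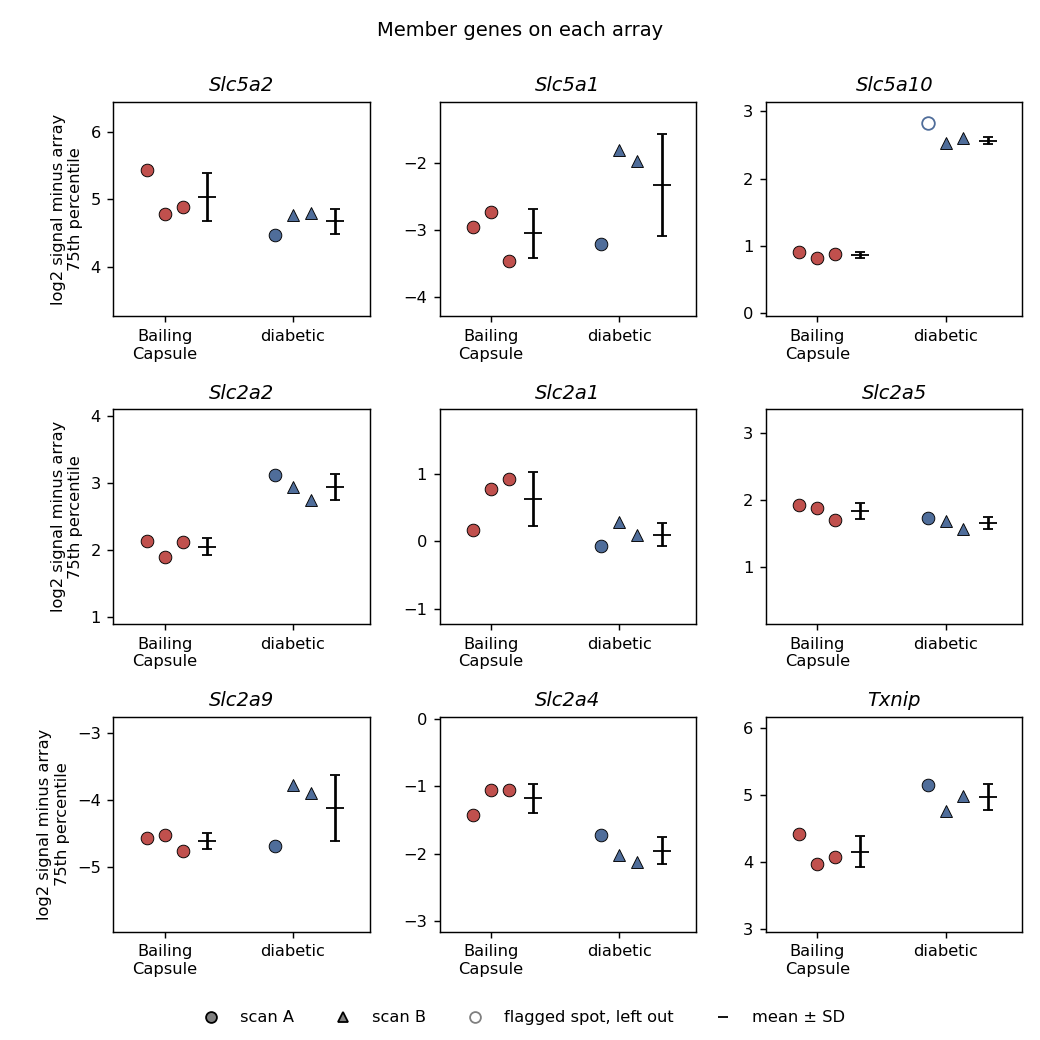
Log2 signal minus the array's 75th percentile (vertical axis, of equal length in each panel) for the 9 member genes, Bailing Capsule arrays at the left and diabetic arrays at the right of each panel. Circles are arrays of scan A, triangles arrays of scan B, the open circle is the spot left out for Slc5a10, and bars are the mean ± SD. Groups do not overlap for Slc5a10, Slc2a2, Slc2a4 and Txnip.

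The first step of glucose reabsorption is carried by Slc5a2 (NM_022590), which encodes SGLT2. Its values were 5.44, 4.78 and 4.89 in Bailing Capsule rats, against 4.47, 4.77 and 4.80 in diabetic rats. Bailing Capsule replicate 1 was the highest array and diabetic replicate 1 the lowest, while the other 4 lay close together. The means were 5.03 ± 0.35 in Bailing Capsule and 4.68 ± 0.18 in diabetic kidneys (SD, n = 3 each). The log2 difference of 0.36 (SE 0.25, 95% interval -0.21 to 0.92) did not pass in limma (adjusted p = 0.81). The interval runs from 0.867 to 1.89 times the diabetic level, so a change of up to 1.89-fold upwards is within the error. The difference was 0.16 without Bailing Capsule replicate 1 and 0.57 with scan as a block, and not called in either.

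Slc5a1 (NM_013033) encodes SGLT1, the high-affinity transporter of the late proximal tubule. It gave dim spots, with intensities between 21.8 and 101 over local backgrounds of 11 to 17. Its values were -2.96, -2.74 and -3.46 in Bailing Capsule rats, against -3.20, -1.81 and -1.98 in diabetic rats. The 4 arrays of scan A were all low, diabetic replicate 1 among them, and the 2 arrays of scan B were high. The log2 difference was -0.72 (SE 0.38, limma adjusted p = 0.69). It was 0.15 with scan as a block, which rests on diabetic replicate 1 alone in that group. Its within-group SD of 0.60 was larger than that of 89.3% of features.

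Slc5a10 (NM_001107007) was measured with a single spot per array. Its values were 0.90, 0.81 and 0.88 in Bailing Capsule rats, against 2.53 and 2.60 in diabetic rats, where replicates 2 and 3 entered the fit. The spot of diabetic replicate 1 was marked by the scanner software as uneven and left out; its value, 2.83, lay above the other diabetic arrays. All diabetic values were therefore well above all Bailing Capsule values, by at least 1.63 log2 units.

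Slc5a10 fell 3.25-fold (95% interval 2.25 to 4.70), with a log2 difference of -1.70 (SE 0.23) and an adjusted p of 0.0400 in limma, which ranked it at 42 among all features. Its spread within groups, 0.052 log2 units, was below that of all but 0.246% of features, with 5 values behind it. With the marked spot kept the difference was -1.79 (adjusted p = 0.0119), and in the authors' deposited log2 values, which hold all 6 arrays, it was -1.75 (adjusted p = 0.0157). Without the marked spot scan and group cannot be told apart for this gene. With that spot kept and scan as a block the difference was -1.96 (adjusted p = 0.0874), which rests on 1 diabetic array and is not called. The call was also lost when Bailing Capsule replicate 2 or 3 or diabetic replicate 2 or 3 was left out, with differences between -1.74 and -1.66 and adjusted p-values of 0.114 to 0.27. It was lost as well with no filter on dim probes (adjusted p = 0.195) and with the replicate number as a block (adjusted p = 0.201).

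Markers of the early proximal tubule, the segments S1 and S2, were measured beside these genes. All 8 tested markers were negative, the median being -0.28 over a range of -0.98 to -0.11, and 0 were called. With each gene set against its diabetic mean, the list medians of the Bailing Capsule arrays were -0.05, -0.66 and -0.43. Those of the diabetic arrays were -0.19, 0.22 and -0.05. Diabetic replicate 1, which shared scan A, thus lay among the treated arrays. Slc5a12, a lactate carrier, had -0.98, Slc22a8, an organic anion carrier, -0.37 and Slc4a4, the basolateral bicarbonate carrier, -0.40. Their summed signal, in units of the 75th percentile, ran from 254 to 425 in Bailing Capsule and from 337 to 453 in diabetic kidneys. Such a sum, here and below, is carried by the brightest probes of a list and does not weigh its genes equally. For 6 markers of the S3 segment the median was -0.02 and 0 were called, with sums of 149 to 267 in Bailing Capsule and 170 to 267 in diabetic kidneys. Acy3 had -0.44, Slc22a7 -0.39 and Cyp7b1 0.19. Their part in the differences of Slc5a10 and Slc2a2 was not tested. In whole kidney RNA, fewer cells of a type and less RNA per cell cannot be told apart.

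Glucose leaves the early tubule cell through GLUT2, the product of Slc2a2 (NM_012879). Its values were 2.13, 1.90 and 2.13 in Bailing Capsule rats, against 3.13, 2.94 and 2.75 in diabetic rats. The groups lay 0.62 log2 units apart, and diabetic replicate 1, which shared a scan with the treated arrays, was the highest. The mean was 2.05 ± 0.13 in Bailing Capsule and 2.94 ± 0.19 in diabetic kidneys (SD, n = 3 each). The log2 difference of -0.89 (SE 0.21) corresponds to 1.85-fold (95% interval 1.33 to 2.58) and did not pass over all features (limma adjusted p = 0.188). With scan as a block it was -1.07 (adjusted p = 0.457), and over 23 alternatives it stayed between -1.07 and -0.79.

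The 7 tested liver markers, measured because hepatocytes also express Slc2a2, were all negative as well, with a median of -1.07 and 0 called. Their summed signal was 16.7 to 37.3 in Bailing Capsule and 22.1 to 50.1 in diabetic kidneys. Most of it came from the bright probe of Tf, which had a log2 difference of -0.48. The fibrinogen genes Fgb and Fga had -1.68 and -1.14 and the antitrypsin gene Serpina1 -1.07, with limma adjusted p-values of 0.181, 0.263 and 0.294. Apoa1, Ahsg and Hp, also liver genes, were below the filter. Their part in the difference of Slc2a2 was not tested.

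Set against Slc5a2 on the same array, the basolateral partner was lower on every treated array, while neither gene was called on its own. The log2 ratio of Slc2a2 to Slc5a2 was -3.30, -2.87 and -2.76 in Bailing Capsule rats, against -1.34, -1.82 and -2.05 in diabetic rats. Every Bailing Capsule ratio was below every diabetic ratio, with a difference of -1.24 and an exact two-sided permutation p of 0.1, the smallest that 3 against 3 arrays allow. For Slc5a10 over Slc5a2 the ratios were -4.54, -3.97 and -4.01 in Bailing Capsule rats, against -2.24 and -2.20 in diabetic replicates 2 and 3 (exact permutation p = 0.2, the smallest for 3 against 2). The log2 ratio of Slc2a4 to Slc2a1 was -1.59, -1.84 and -2.0 in Bailing Capsule rats, against -1.67, -2.30 and -2.21 in diabetic rats, with overlapping groups (difference 0.25, exact permutation p = 0.3). These 3 ratios were chosen with the values known, so their p-values are a description and not a test. Slc2a2, Slc5a10 and Slc2a4 already had groups that did not overlap. The ratio of Slc5a10 to Slc5a2 lacks diabetic replicate 1, so scan and group cannot be told apart for it.

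Slc2a1 (NM_138827) encodes GLUT1, a carrier found on the basolateral side of later tubule segments, on vessels and, in humans, on red cells. Each array held 10 spots of its probe, of which at least 8 were used, and their SD on an array was 0.027 to 0.067 log2 units. Its values were 0.17, 0.79 and 0.94 in Bailing Capsule rats, against -0.06, 0.28 and 0.09 in diabetic rats. Bailing Capsule replicate 1 lay within the diabetic range and the other treated arrays above it. The samples of a group differed by more than the spots of an array, which leave out error from extraction, labelling and hybridisation. The log2 difference was 0.53 (SE 0.26, limma adjusted p = 0.648), and it was 0.76 without Bailing Capsule replicate 1 (adjusted p = 0.219). The 4 tested red cell markers were all positive, with a median of 0.66 and 0 called, and sums of 98.3 to 178 in Bailing Capsule and 93.6 to 121 in diabetic kidneys. Alas2, a haem synthesis gene, had 1.1, Slc4a1, the anion exchanger gene that intercalated cells share, 0.57, and the globin gene Hbb-b1 0.75. The other tested globin gene, Hbb, had 0.08. Epb42, a red cell membrane gene, was below the filter, and the part of red cells in the value of Slc2a1 was not tested.

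Slc2a4 (NM_012751) encodes GLUT4, the carrier that insulin brings to the surface of muscle and fat cells. Its 10 spots per array had an SD of 0.048 to 0.136 log2 units. The values were -1.42, -1.05 and -1.06 in Bailing Capsule rats, against -1.73, -2.02 and -2.12 in diabetic rats. All treated arrays lay above all diabetic arrays, by at least 0.31 log2 units. The means were -1.18 ± 0.21 in Bailing Capsule and -1.96 ± 0.20 in diabetic kidneys (SD, n = 3 each). The log2 difference of 0.78 (SE 0.22), or 1.72-fold (95% interval 1.21 to 2.44), did not pass over all features (limma adjusted p = 0.276). It was 0.55 with scan as a block and 0.43 with normexp background correction and quantile normalization together.

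Markers of fat and muscle, where GLUT4 is best known, were read beside Slc2a4. The 5 tested adipocyte markers were all negative, with a median of -1.08 and 0 called, and sums of 4.12 to 12.6 in Bailing Capsule and 12.1 to 19.1 in diabetic kidneys. Cidea, a lipid droplet gene, had -1.84 (limma adjusted p = 0.0909), the adrenergic receptor gene Adrb3 -1.83 (adjusted p = 0.205) and Fabp4, a fatty acid carrier gene, -0.81. Lep and Ucp1, which mark white and brown fat, were below the filter. The 4 tested skeletal muscle markers had a median of -0.01 and 0 called, and sums of 1.28 to 1.76 in Bailing Capsule and 1.42 to 1.66 in diabetic kidneys. Ckm, the muscle creatine kinase gene, had -0.45, Acta1 0.10 and Tnni2 -0.02, and Myl1, Tnnt3 and Myh4 of fast muscle were below the filter. The part of these cells in the value of Slc2a4 was not tested.

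Slc2a5 (NM_031741) encodes GLUT5, the fructose carrier, which in the rat kidney is known from the late proximal tubule. Its values were 1.93, 1.89 and 1.70 in Bailing Capsule rats, against 1.73, 1.69 and 1.57 in diabetic rats. The groups overlapped and the arrays lay close together, with a within-group SD of 0.107. The log2 difference of 0.18 (SE 0.20, limma adjusted p = 0.923) had a 95% interval from -0.28 to 0.63, so changes of up to 1.55-fold upwards are within the error. Over 23 alternatives it ran from 0.11 to 0.30.

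Slc2a9 (NM_001191551) encodes GLUT9, a carrier of urate more than of glucose. Its spots were dim, with intensities of 8.90 to 26.9 after background subtraction, over local backgrounds of 13 to 15. Its values were -4.56, -4.52 and -4.75 in Bailing Capsule rats, against -4.68, -3.77 and -3.89 in diabetic rats. As for Slc5a1, the 4 arrays of scan A were low and the 2 of scan B high. The log2 difference was -0.50 (SE 0.28, limma adjusted p = 0.713), and it was 0.07 with scan as a block.

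Txnip (NM_001008767) had values of 4.42, 3.97 and 4.08 in Bailing Capsule rats, against 5.16, 4.77 and 4.99 in diabetic rats. Every treated array was below every diabetic array, by at least 0.35 log2 units, and the highest diabetic array was the one that shared scan A. The means were 4.16 ± 0.23 in Bailing Capsule and 4.97 ± 0.20 in diabetic kidneys (SD, n = 3 each). The log2 difference of -0.82 (SE 0.22) corresponds to 1.76-fold (95% interval 1.23 to 2.51) and did not pass over all features (limma adjusted p = 0.256). With scan as a block it was -1.0 (adjusted p = 0.622). Over 23 alternatives it ran from -1.0 to -0.69, with 0 calls.

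**Figure D2:**
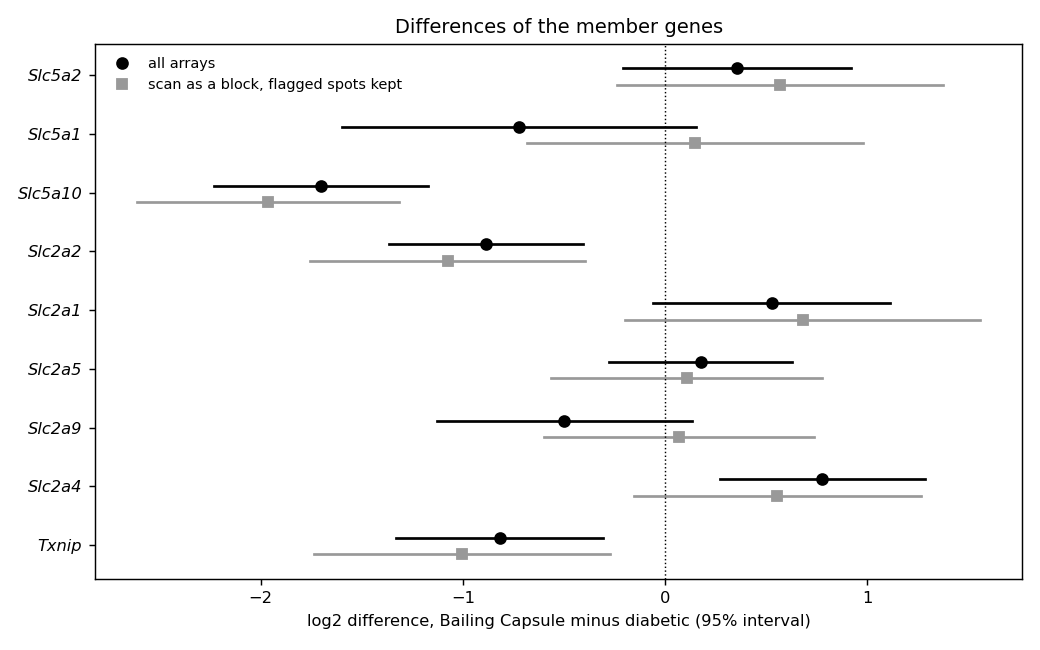
Log2 difference of each member gene, Bailing Capsule minus diabetic (horizontal axis), with its 95% interval from limma. Black circles use all arrays without marked spots. Grey squares have scan as a block with marked spots kept, which rests on diabetic replicate 1 alone in that group. Slc5a10 lies at -1.70 and -1.96, and Slc5a1 and Slc2a9 change sign between the settings.

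**Figure D3:**
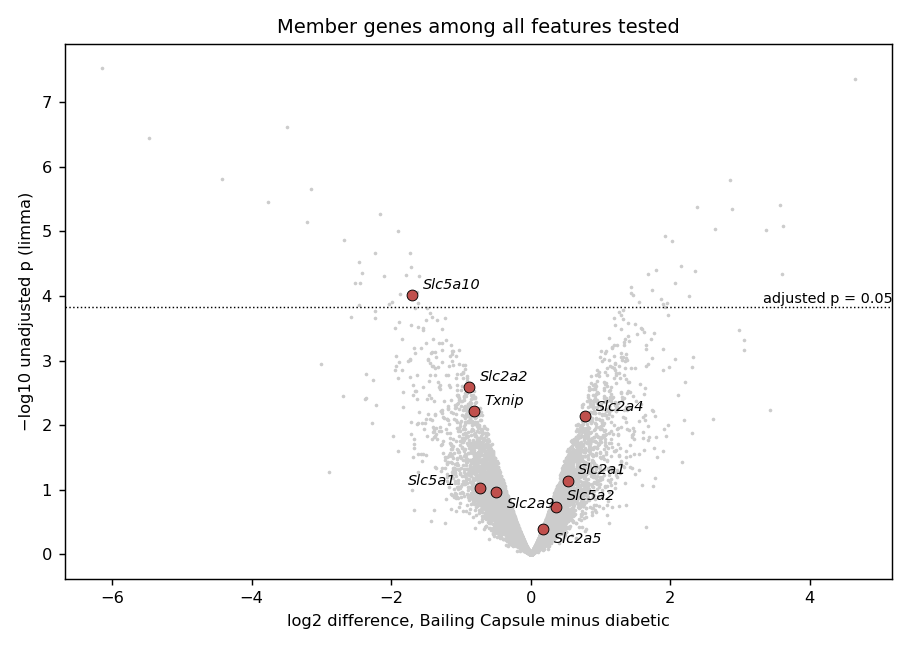
Log2 difference, Bailing Capsule minus diabetic (horizontal axis), against −log10 of the unadjusted p from limma (vertical axis) for all features tested (grey) and the 9 member genes (red). The dotted line marks the largest p that was called; Slc5a10 lies above it and the other 8 members below.

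Related genes and cell type markers were read from 18 lists with 106 tested genes, of which limma called 0, and 19 (17.9%) had an unadjusted p under 0.05, against 8.48% of all features. The lists were chosen with earlier results known, so the shares are a description. Those around Txnip come first. Of the other arrestins tested, Arrdc3, an alpha arrestin like Txnip, had the most negative difference. It gave -3.58, -3.02 and -2.94 in Bailing Capsule rats, against -2.36, -2.54 and -2.23 in diabetic rats, with no overlap. Its log2 difference of -0.81 (SE 0.24) did not pass (limma adjusted p = 0.315). The beta arrestin genes Arrb1 and Arrb2 had -0.38 and 0.21, and Arrdc1 and Arrdc2 both had -0.23. In all, 5 arrestin genes were tested besides Txnip, 0 were called and 4 were negative, with a median of -0.23.

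Listed factors and targets of ChREBP and MondoA were read beside Txnip, and their part in its difference was not tested. Of 14 tested factors and targets 0 were called and 11 were negative, with a median of -0.12 over a range of -0.53 to 0.99. Mlxipl, which encodes ChREBP itself, had -0.04, and its partner gene Mlx had -0.06. Fasn, the fatty acid synthase, was positive with no overlap, at -0.27, 0.25 and -0.20 in Bailing Capsule rats, against -0.89, -0.73 and -0.73 in diabetic rats. Its log2 difference was 0.71 (limma adjusted p = 0.345). Pklr, of liver-type pyruvate kinase, had -0.53 and Thrsp, a lipogenic gene, 0.99, and Elovl6, a fatty acid elongase gene, -0.39, with overlapping groups for all 3. In the thioredoxin system 4 genes were tested and 0 called; Txn1, whose product TXNIP binds, had -0.24, its mitochondrial form Txn2 0.17, and the reductase genes Txnrd1 and Txnrd2 0.03 and 0.20.

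Among the other Slc5 cotransporters, the sodium-coupled monocarboxylate carriers of the proximal tubule were lower without passing. Slc5a12, of the early tubule, had 1.39, 1.60 and 1.29 in Bailing Capsule rats, against 2.55, 2.52 and 2.14 in diabetic rats (log2 difference -0.98, SE 0.22, limma adjusted p = 0.157). Slc5a8, of the later tubule, had -1.34, -1.18 and -1.50 in the treated rats, against -0.09, -0.65 and -0.79 in the diabetic ones (log2 difference -0.83, SE 0.25, limma adjusted p = 0.309). Both had groups that did not overlap. Of the 6 tested relatives 0 were called and 4 were negative; the iodide carrier gene Slc5a5 had -0.51, the inositol carrier gene Slc5a3 0.23 and the vitamin carrier gene Slc5a6 0.08. Of the other facilitative carriers 3 were tested and 0 called, with Slc2a6 at 0.04, Slc2a12 at -0.17 and Slc2a13, an inositol carrier, at 0.51.

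The partners and regulators of SGLT2 had values nearer 0. Of 9 tested genes 0 were called and 7 were positive, with a median of 0.12. Pdzk1ip1, which encodes the SGLT2 accessory protein MAP17, had 0.02, and Pdzk1, of an apical scaffold, 0.12. The kinase gene Sgk1 had 0.53 and Hnf4a, of a tubule transcription factor, 0.28. Atp1b1 and Fxyd2, of subunits of the sodium pump, which keeps up the sodium gradient, had -0.16 and 0.25.

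Insulin signalling and GLUT4 trafficking genes were read beside Slc2a4. Of 9 tested, 0 were called and 6 were positive, with a median of 0.38. Irs2, an insulin receptor substrate, had -0.85 (limma adjusted p = 0.377), with 1.48, 1.48 and 1.61 in Bailing Capsule rats, against 2.40, 2.86 and 1.86 in diabetic rats. Irs1 had 0.46 and Tbc1d1, a Rab regulator of GLUT4 movement, 0.38, and groups did not overlap for these 3 genes. Vamp2, of vesicle fusion, had -0.56. Of 8 hexose kinases and phosphatases 0 were called and 7 were negative, with a median of -0.21. Hk3 and Hk1 had -0.55 and 0.31. Hk2, a hexokinase, had -0.86 (limma adjusted p = 0.541), and its diabetic replicate 1, at -4.32, lay with the treated arrays.

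**Figure D4:**
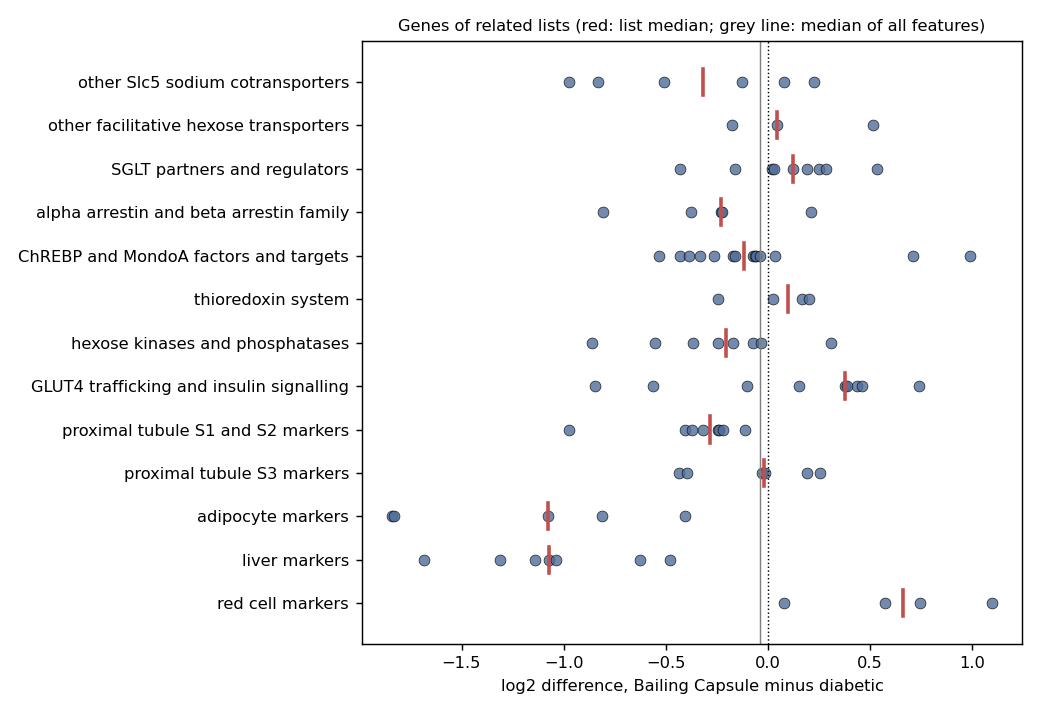
Log2 difference of each tested gene, Bailing Capsule minus diabetic (horizontal axis), in 13 lists of related genes and cell type markers; red bars are list medians and the grey line is the median of all features, -0.04. No gene shown was called; adipocyte and liver markers lie below 0 and red cell markers above it.

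The named genes with profiles nearest to each member were found by the root mean square distance between log2 values centred on each gene's own mean. For Slc5a10, over the 5 arrays with a value, they were Hyal1, a hyaluronidase gene, at 0.0895 log2 units, Foxj1, of ciliated cells, at 0.113 and Ifi47 at 0.121. Diabetic replicate 1 did not enter these distances. In the main fit Hyal1 had a log2 difference of -1.73, Foxj1 -1.20 and Ifi47 -1.11, against -1.70 for Slc5a10. For Txnip, over 6 arrays, the nearest genes were Rhoc at 0.0936, Slc26a6, an apical anion exchanger gene, at 0.10 and Nceh1 at 0.109. For Slc2a2 they were Acot8, a peroxisomal thioesterase gene, at 0.0863, Sar1b at 0.0912 and Defb11 at 0.103. For Slc2a4 they were Veph1, Gbp2 and Kcnj14, at 0.0661 to 0.0948, and for Slc5a2 the nearest was Hk1, a hexokinase gene, at 0.056. With so few arrays many genes share such a profile.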

How the data were processed

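The arrays went through Agilent's Feature Extraction (version 11.0.1.1), whose intensity per spot is, per the file headers, already corrected for background and spatial trend; the authors' deposited table holds log2 values with the same median in every column, 5.05, by a normalization that the sources used here do not state, and it was used as an alternative. Spots that the software marked as outliers were left out, spots of a probe were averaged as log2, and each array's 75th percentile over all 30367 non-control probes was subtracted. Marked spots stayed in that percentile: leaving them out moved it by between -0.269 and -0.00522 from array to array. A probe was kept if at least 50% of its spots were well above background on all 3 arrays of a group, and the brightest kept probe stood for a gene. RefSeq accessions were named through a RefSeq table of GRCr8 (18005 probes named, 12362 unnamed here). limma 3.58.1 in R 4.3.3 compared the groups, Bailing Capsule minus diabetic, with Benjamini-Hochberg adjustment; it was tested on simulated data. The number of arrays limits the precision. The members and all lists were chosen with earlier results of these data known. Named genes are the members, of each list the 3 tested genes with the lowest p, other list genes by role, and the 3 genes nearest to a member; some items of these are not reported here.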

Additional observations from a re-analysis of the deposited data

How the results depend on the processing

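Over 23 alternatives at most, the signs of Slc5a2, Slc5a10, Slc2a1, Slc2a2, Slc2a4, Slc2a5 and Txnip did not turn; for Slc5a10, Slc2a2, Slc2a4 and Txnip, whose groups do not overlap, leaving out an array could not turn them. Slc5a1 went to 0.15 and Slc2a9 to 0.070 with scan as a block and within scan A, with or without marked spots. All of these settings set the treated arrays against diabetic replicate 1 alone. Slc5a10 was called in 12 of 20 alternatives. These calls include the fit without diabetic replicate 1, which held no unmarked value for Slc5a10, so the estimate stayed at -1.70. Settings that dropped Slc5a10 or gave it no value are not among the 20. The members called were 0 with no filter, with a filter on all 6 arrays (which drops Slc5a10), with scan as a block (which gives it no value), within scan A, and in both of these with marked spots kept. The number of all features called was 12 when normexp and quantiles were used together, 7 with no filter, 35 with the filter on all 6 arrays, 13 with scan as a block and 9 within scan A, and again 13 and 9 with marked spots kept. Leaving out 1 array gave 13 to 75 features and 0 to 1 members. Same-numbered samples correlated at -0.181, -0.140 and 0.0194 after group means were removed, and other pairs at -0.231 to 0.256. With 3 samples per group these values cannot settle whether same-numbered samples were paired. In the replicate block fit 10 features and 0 members were called, and Slc5a10 had -1.72 (adjusted p = 0.201). More features tested or fewer arrays enter some of these settings; otherwise the cause was not tested. The percentile over unmarked probes, that over probes unmarked on all arrays and the settings with marked spots kept were chosen after the data were seen. Slc2a9 and Slc5a1 have signals near background, which limits their differences.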

Other observations

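Other kidney and blood cell markers gave these values. Of 7 collecting duct genes tested 0 were called and 5 were positive, with a median of 0.20. Atp6v1g3, a proton pump subunit gene of intercalated cells, had 1.15 (limma adjusted p = 0.212), and Slc4a1 had 0.57. Aqp3, a water channel gene of principal cells, had -0.78 (limma adjusted p = 0.281). Groups did not overlap for Atp6v1g3 and Aqp3. Aqp2 had -0.43, while Scnn1g, Scnn1b and Avpr2 were positive, at 0.20, 0.20 and 0.18. Thick ascending limb genes had a median of 0.38 over 4 tested, with Egf at 0.87, Kcnj1 at 0.41, Cldn16 at 0.35 and Umod at -0.03. Endothelial genes had a median of -0.27 over 4, with Emcn at 0.48, Cdh5 at -0.47 and Pecam1 at -0.32, and leukocyte genes 0.19 over 3, with Cd68 at 0.31, Ptprc at 0.19 and Lyz2 at 0.13; 0 were called in either.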
